A study of Rattus norvegicus with 20 samples.

Results

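Eprs, Nudt9, Sirt5, Mapk8ip3 and Supt16h are 5 genes whose probes lay higher on the arrays of rat foetal testes after MEHP than on those of corn oil controls. They were found by the gene name or accession in the array files, which gave 5 of 35737 gene names on the array and 8 of 41012 probes: 2 for Eprs, 3 for Supt16h and 1 for each of Nudt9, Sirt5 and Mapk8ip3. All 8 were well above background on all 20 arrays, none was saturated, and each had 1 spot per array. The genes were chosen for their levels with MEHP, so their values on the MEHP and control arrays are given as a description, with no test.

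The arrays measured total RNA of testes from Han Wistar foetuses whose dams were gavaged daily on gestation days 12 to 19. The dams received MEHP (mono(2-ethylhexyl) phthalate), a compound labelled only EHO, DEHP (di(2-ethylhexyl) phthalate) or TOTM (tris(2-ethylhexyl) trimellitate), each at 500 mg/kg, or corn oil alone as control. Each group had 4 arrays, and every array held testes pooled within a litter, from 3 pups or more. In whole testes, a change in the number of cells of a type and a change in RNA per cell cannot be told apart.

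MEHP is the monoester to which DEHP is cleaved in the gut, and the foetal rat testis is known to answer this monoester with lower expression of steroid-making genes. The 5 genes are not known as members of 1 pathway. Eprs encodes the enzyme that loads glutamate and proline onto their tRNAs for protein synthesis. Nudt9 encodes a Nudix hydrolase that splits ADP-ribose, and Sirt5 a mitochondrial enzyme that uses NAD to remove succinyl, malonyl and glutaryl groups from lysines. Mapk8ip3 encodes a scaffold that holds the kinases of the JNK pathway together and ties them to the kinesin-1 motor. Supt16h encodes the large subunit of FACT, the histone chaperone that opens nucleosomes ahead of polymerases.

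The promoters are shown because the genes were put together for moving in the same direction. Each line gives the 250 bases before the start of the gene, 5′ to 3′ on the gene's strand, from RefSeq on the GRCr8 build. These windows lie at chr13:99433003-99433252 on the plus strand (Eprs, now named Eprs1), and on the minus strand at chr14:5997772-5998021 (Nudt9), chr17:21543057-21543306 (Sirt5) and chr10:14462813-14463062 (Mapk8ip3). Capitals mark GC boxes (GGGCGG) and CCAAT boxes (CCAAT), searched on both strands, and of the 5 genes 4 had a promoter entry, with Supt16h named only.
Eprs promoter: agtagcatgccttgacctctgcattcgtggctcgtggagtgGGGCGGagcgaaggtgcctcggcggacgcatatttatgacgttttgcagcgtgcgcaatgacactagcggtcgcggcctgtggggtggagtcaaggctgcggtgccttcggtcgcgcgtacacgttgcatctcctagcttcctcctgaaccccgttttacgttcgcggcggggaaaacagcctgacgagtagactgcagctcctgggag
Nudt9 promoter: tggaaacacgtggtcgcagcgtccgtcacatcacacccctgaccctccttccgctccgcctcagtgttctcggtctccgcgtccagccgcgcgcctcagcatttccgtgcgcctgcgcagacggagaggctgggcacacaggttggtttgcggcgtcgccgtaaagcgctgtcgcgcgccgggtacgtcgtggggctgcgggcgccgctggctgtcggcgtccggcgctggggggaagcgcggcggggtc
Sirt5 promoter: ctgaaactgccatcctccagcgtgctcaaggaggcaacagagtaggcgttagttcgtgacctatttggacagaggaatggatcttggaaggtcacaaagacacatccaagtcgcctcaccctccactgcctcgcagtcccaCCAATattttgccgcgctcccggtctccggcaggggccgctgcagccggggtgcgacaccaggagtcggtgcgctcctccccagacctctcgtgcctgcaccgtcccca
Mapk8ip3 promoter: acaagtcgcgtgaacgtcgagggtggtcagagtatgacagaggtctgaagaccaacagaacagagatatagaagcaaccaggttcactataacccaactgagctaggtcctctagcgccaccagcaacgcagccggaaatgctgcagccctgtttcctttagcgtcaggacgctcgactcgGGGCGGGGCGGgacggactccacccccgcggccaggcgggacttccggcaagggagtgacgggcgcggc

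The 4 promoters were rich in G and C, at 60.8% for Eprs, 71.2% for Nudt9, 61.2% for Sirt5 and 61.2% for Mapk8ip3, against a median of 51.2% over 33469 rat promoters of the same length. They held 25, 37, 16 and 21 CG dinucleotides in that order, against a median of 5. The GC box was found in the Eprs promoter once and in the Mapk8ip3 promoter as 2 overlapping matches, thus in 2 of 4 promoters, against 30.5% of all promoters. The CCAAT box was found in that of Sirt5, 1 of 4, against 34% of all. No match was found to a direct repeat of AGGTCA with 1 base between, a form of the element bound by the peroxisome proliferator receptors, which 0.0508% of all promoters hold. The amino acid response element TGATGNAAT (0.944% of all) was not found either. The motif search gave no sequence feature that the 4 promoters shared beyond their base composition.

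Per the file headers each group was hybridised on a slide of its own, with 1 scan per slide, so a compound and its slide cannot be told apart. The noise between repeated spots within an array served as a yardstick. MEHP replicates 1 and 2 differed by 0.948 times this noise, which is within sampling noise, and their mean was used as 1 sample. This leaves 3 samples for MEHP and 4 for each other group. The next closest of all 190 pairs of arrays joined different groups: MEHP replicate 3 lay 1.59 times the noise from control replicate 2, and MEHP replicate 4 lay 1.66 times the noise from DEHP replicate 3. Pairs within a group had a median of 2.76 times the noise. MEHP replicate 3 lay far from its own group, at 4.75 to 5.86 times the noise from the other MEHP arrays. Control replicate 2 likewise lay at 4.78 to 5.28 times the noise from the other control arrays. On EHO arrays 46.1% to 63.5% of spots were well above background, against 63.9% to 79.8% on the others, and EHO replicates 1 and 2 were the dimmest. The levels of Star, which carries cholesterol into mitochondria for steroid synthesis and which phthalates are known to lower, were -0.10, -0.03, 3.21 and 1.71 on MEHP replicates 1 to 4, against 3.09 to 3.66 on control arrays. Star was thus low on 3 MEHP arrays and within the control range on MEHP replicate 3.

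Levels are log2 of the processed signal minus the 75th percentile of the array, so a level of 0 is the brightness of that percentile. On EHO arrays that percentile was at a signal of 212 to 257, so the same signal gives a higher level there. It was at 269 to 333 on DEHP arrays and 290 to 319 on TOTM arrays. MEHP arrays had 271 to 326 and control arrays 276 to 351. A difference of 1 between levels is a doubling, and levels of different probes are not comparable. Error terms of differences are standard errors from limma, which pooled the spread over all 5 groups.

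Eprs has a pair of probes 174 bases apart on chromosome 13 (rn4, plus strand, per the file headers), which the files tie to different transcript records. The downstream probe, A_44_P1000383 at chr13:101448244-101448303, had log2 levels of 0.24, 0.46, 0.48 and 0.30 on MEHP arrays, against -1.18, -0.60, -0.55 and -0.39 on control arrays. All MEHP arrays lay above all control arrays, with a gap of 0.64 between the lowest MEHP and the highest control level. The mean log2 level was 0.38 ± 0.09 with MEHP (SD, n = 3) and -0.68 ± 0.35 in control (SD, n = 4), a log2 difference of 1.06 ± 0.18 or 2.08-fold. The upstream probe, A_44_P1000389 at chr13:101448070-101448129, had log2 levels of 4.79, 4.83, 4.45 and 4.61 on MEHP arrays, against 4.30, 4.56, 4.69 and 4.56 on control arrays. Its groups overlapped, and the log2 difference was 0.10 ± 0.13. The 2 probes of Eprs therefore did not behave alike with MEHP.

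Nudt9 has 1 probe, A_44_P386799 at chr14:6809110-6809169 on the minus strand. Its log2 levels were 1.39, 1.56, 2.13 and 1.82 on MEHP arrays, against 0.40, 1.13, 0.76 and 0.83 on control arrays. The lowest MEHP level stood 0.26 above the highest control level. Group means of the log2 level were 1.81 ± 0.33 with MEHP (SD, n = 3) and 0.78 ± 0.30 in control (SD, n = 4), a log2 difference of 1.03 ± 0.23 or 2.04-fold. Within MEHP, replicates 3 and 4 had higher levels than replicates 1 and 2.

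Sirt5 has 1 probe, A_44_P1060459 at chr17:27135655-27135714 on the minus strand. It had log2 levels of 0.74, 1.05, 1.26 and 0.77 on MEHP arrays, against 0.36, 0.05, -0.25 and 0.04 on control arrays. The groups stood apart by 0.38 on the log2 scale. The mean log2 level was 0.97 ± 0.26 with MEHP (SD, n = 3) and 0.05 ± 0.25 in control (SD, n = 4), a log2 difference of 0.92 ± 0.23 or 1.9-fold.

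Mapk8ip3 has 1 probe, A_44_P226771, placed on the minus strand at chr10:14163671-14167270, a span of 3600 bases where the other probes span 60. Its log2 levels were 1.14, 1.05, 0.14 and 0.65 on MEHP arrays, against -0.07, -0.54, 0.02 and -0.07 on control arrays. MEHP replicate 3 was low among its group and lay only 0.12 above the highest control, while control replicate 2 was the lowest array of all. The mean log2 level was 0.63 ± 0.48 with MEHP (SD, n = 3) and -0.17 ± 0.26 in control (SD, n = 4), a log2 difference of 0.79 ± 0.18 or 1.73-fold. Of the 5 probes whose groups stood apart, this one had the widest spread between MEHP samples.

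Supt16h has 3 probes on the minus strand of chromosome 15. The middle one, A_44_P651053 at chr15:27604703-27604762, had log2 levels of 0.64, 0.82, 0.97 and 0.74 on MEHP arrays, against -0.68, -0.36, -0.86 and -0.25 on control arrays. Its gap between the groups, 0.89, was the widest of the 8 probes. The mean log2 level was 0.81 ± 0.13 with MEHP (SD, n = 3) and -0.54 ± 0.28 in control (SD, n = 4), a log2 difference of 1.35 ± 0.19 or 2.55-fold. The probe 9644 bases towards the 5′ end, A_44_P311642 at chr15:27614347-27614406, had log2 levels of -0.27, -0.37, 0.34 and -0.16 on MEHP arrays, against -0.27, 0.26, -0.47 and -0.06 on control arrays. The probe 956 bases towards the 3′ end, A_44_P623210 at chr15:27603747-27603806, had log2 levels of -1.52, -1.70, -1.74 and -1.82 on MEHP arrays, against -1.87, -1.82, -1.99 and -2.18 on control arrays. Both pairs of groups overlapped, with log2 differences of 0.09 ± 0.18 and 0.24 ± 0.15. For A_44_P623210 the overlap was minimal. Its lowest MEHP minus its highest control level was -0.0004, and 3 of 4 MEHP arrays lay above every control array. For Supt16h, as for Eprs, 1 probe of the gene stood apart between MEHP and control and the others did not.

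**Figure D1:**
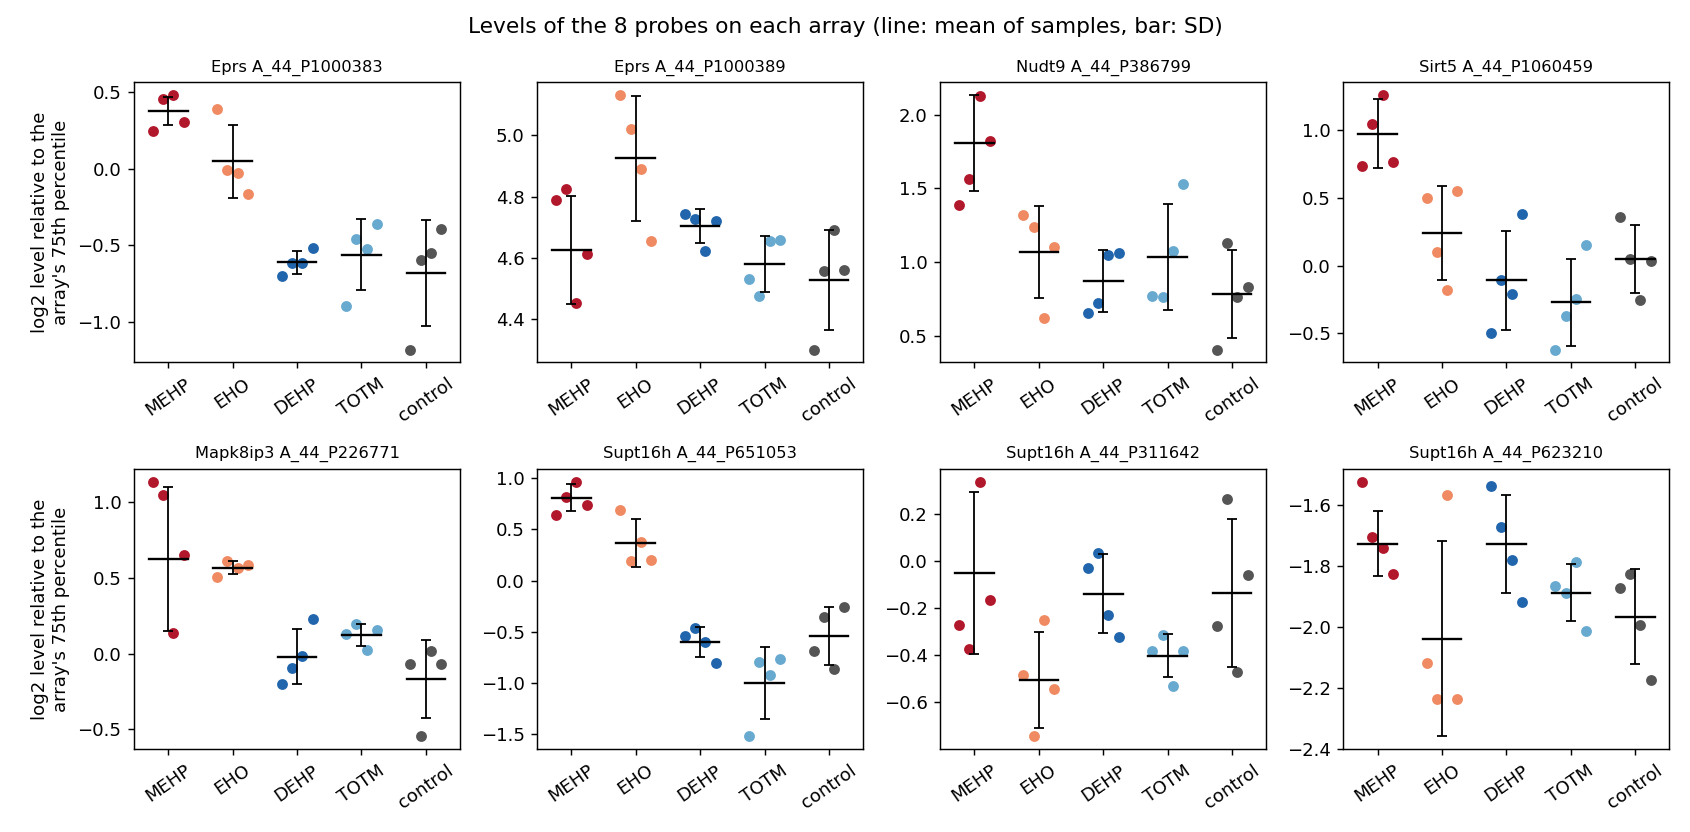
Log2 level of each probe relative to the array's 75th percentile, with 1 panel per probe, points for single arrays in replicate order, lines for the mean of samples and bars for the SD (n = 3 for MEHP, n = 4 elsewhere). Every MEHP array lies above every control array for 5 of the 8 probes, and on 3 of these 5 the EHO arrays also lie above the DEHP and TOTM arrays.

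In all, 5 of 8 probes had every MEHP array above every control array, against 2.74% of all probes tested, and since the genes were chosen on these arrays nothing is read from that count. These 5 probes, picked out below after their values were seen, had log2 differences of 0.79 to 1.35 with a median of 1.03. The remaining 3 had 0.09 to 0.24 with a median of 0.10. Over all 27753 probes tested in this comparison, limma with Benjamini-Hochberg adjustment called 236 higher with MEHP, which is 0.85% of them, and 8 lower, which is 0.0288% (0.879% in either direction). The median log2 difference of all probes was -0.06.

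EHO arrays lay on another slide and took no part in the choice of genes. The downstream Eprs probe A_44_P1000383 had log2 levels of 0.39, -0.01, -0.03 and -0.17 on EHO arrays, against the control levels of -1.18 to -0.39. Mapk8ip3 had log2 levels of 0.51, 0.62, 0.57 and 0.59 on EHO arrays, against -0.54 to 0.02 on control arrays. The Supt16h probe A_44_P651053 had log2 levels of 0.69, 0.20, 0.38 and 0.20 on EHO arrays, against -0.86 to -0.25 on control arrays. On each of these 3 probes every EHO array lay above every control array, which 6.22% of all probes tested also showed. Before scaling, the signals of all 3 overlapped with control. They were 212 to 279 against 155 to 267 for Eprs A_44_P1000383 and 302 to 381 against 189 to 334 for Mapk8ip3. For Supt16h A_44_P651053 they were 244 to 343 against 169 to 294. Nudt9 had log2 levels of 1.32, 1.24, 0.62 and 1.10 on EHO arrays, against 0.40 to 1.13 in control, and Sirt5 had 0.50, 0.10, -0.18 and 0.55, against -0.25 to 0.36. Both overlapped with control.

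Against control, 4 of 8 probes rose with EHO and none fell at an adjusted p under 0.05 in limma, where 6.37% of all 27753 probes were called higher and 17.8% lower (24.2% in either direction). The comparison shares its controls with the choice of genes, so this count is not independent of it. The rise was 0.91 ± 0.18 for Supt16h A_44_P651053 (limma adjusted p = 0.00764), 0.73 ± 0.16 for Eprs A_44_P1000383 (limma adjusted p = 0.0138) and 0.74 ± 0.17 for Mapk8ip3 (limma adjusted p = 0.0145), all as log2 differences. The other Eprs probe, A_44_P1000389, whose groups overlapped, rose by 0.40 ± 0.12 (limma adjusted p = 0.0328). Its signal before scaling was not higher with EHO, at 6372 to 7640 against 6513 to 8259 on control arrays. The log2 differences that did not pass were 0.29 ± 0.21 for Nudt9, 0.19 ± 0.22 for Sirt5, -0.37 ± 0.17 for Supt16h A_44_P311642 and -0.07 ± 0.14 for Supt16h A_44_P623210, with adjusted p of 0.0954 to 0.715 in limma. The median log2 difference of all probes was -0.17, and relative to it the 4 that rose stood at 0.57 to 1.08. Without EHO replicates 1 and 2 together none of the 4 passed, with 2 EHO arrays left. Of all 27753 probes, 159 were then called higher (0.573%, against 6.37% with all arrays) and 93 lower. The log2 differences were then 0.83 for Supt16h A_44_P651053 (limma adjusted p = 0.0661), 0.74 for Mapk8ip3 (limma adjusted p = 0.101), 0.58 for Eprs A_44_P1000383 (limma adjusted p = 0.152) and 0.25 for Eprs A_44_P1000389 (limma adjusted p = 0.419). None of the 4 passed either when limma was fitted on the EHO and control arrays alone, with adjusted p of 0.122 to 0.227. That fit called only 2 of all 27753 probes higher and 1 lower, so it says little of these 4 in particular.

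The difference of EHO from DEHP and TOTM takes no value from the MEHP or control arrays, though these arrays enter the spread that limma pools over the 5 groups. With MEHP left out of the fit the same count of 4 of 8 probes passed, with limma adjusted p of 0.000457 for Supt16h A_44_P651053, 0.00737 for Mapk8ip3 and 0.0122 for Eprs A_44_P1000383. For Supt16h A_44_P651053 the EHO levels of 0.20 to 0.69 stood above all levels with DEHP and TOTM, which ran from -1.52 to -0.46, all on the log2 scale. The log2 difference was 1.17 ± 0.15 (limma adjusted p = 0.000189), and it passed in all 32 alternative settings. Eprs A_44_P1000383 had EHO levels of -0.17 to 0.39, against -0.90 to -0.36 with DEHP and TOTM, a log2 difference of 0.63 ± 0.14 (limma adjusted p = 0.00703). Mapk8ip3 had EHO levels of 0.51 to 0.62, against -0.20 to 0.23 with DEHP and TOTM, a log2 difference of 0.52 ± 0.14 (limma adjusted p = 0.0198). On these 3 probes all EHO arrays lay above all DEHP and TOTM arrays, as on 5.63% of all probes tested. Before scaling, the signals stayed apart for Supt16h A_44_P651053, at 244 to 343 with EHO against 102 to 230 with DEHP and TOTM. Those of Eprs A_44_P1000383 (212 to 279 against 157 to 248) and Mapk8ip3 (302 to 381 against 234 to 390) overlapped. Eprs A_44_P1000389 rose by 0.28 ± 0.10 on the log2 scale, with overlapping groups (limma adjusted p = 0.0414). In this comparison 4 of 8 probes passed, all higher, where 9.82% of 28113 probes were called higher and 26.6% lower (36.4% in either direction).

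The same comparison did not pass for the other 4 probes. Sirt5 had a log2 difference of 0.43 ± 0.19 (limma adjusted p = 0.0763), with 2 of 4 EHO arrays above all DEHP and TOTM arrays. Nudt9 had 0.12 ± 0.18 (limma adjusted p = 0.629), and its EHO levels of 0.62 to 1.32 lay among those of DEHP and TOTM, 0.65 to 1.53. Supt16h A_44_P311642 and A_44_P623210 had log2 differences of -0.24 ± 0.14 and -0.23 ± 0.12 (limma adjusted p = 0.199 and 0.14). Without EHO replicate 1, or without EHO replicate 2, 2 of the 4 calls were left. Without both arrays 1 was left, that of Supt16h A_44_P651053 (log2 difference 1.09, limma adjusted p = 0.0051). Calls over all 28113 probes fell alongside, from 2761 higher and 7482 lower. They were 1259 and 983, 1699 and 1769, and 651 and 447 in that order.

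DEHP and TOTM each gave 0 of 8 calls against control in limma, where 0.0036% and 0.00721% of all probes were called. An unadjusted p under 0.05 was reached by 681 of all 27753 probes with DEHP and by 2367 with TOTM. Of the 8 probes the count was 0 for DEHP and 1 for TOTM, the probe Supt16h A_44_P651053. That probe had log2 levels of -1.52, -0.79, -0.92 and -0.77 on TOTM arrays, against -0.68, -0.36, -0.86 and -0.25 on control arrays, a log2 difference of -0.46 ± 0.18 (limma adjusted p = 0.535). On DEHP arrays it had -0.54, -0.46, -0.60 and -0.81, within the control range. The log2 difference of DEHP from control ran from -0.16 for Sirt5 to 0.24 for Supt16h A_44_P623210, and that of TOTM from -0.46 to 0.29 for Mapk8ip3. Mapk8ip3 levels were 0.13, 0.19, 0.03 and 0.16 on TOTM arrays, all above the highest control level of 0.02, by a gap of 0.01 at the narrowest. It was the only one of the 8 probes with every TOTM array above every control array, as were 3.8% of all probes tested. On DEHP arrays Mapk8ip3 had -0.20, -0.09, -0.01 and 0.23, and no probe of the 8 had every DEHP array above every control array, as 0.851% of all probes tested did. TOTM against DEHP also gave 0 of 8 calls in limma, with 0% of all probes called and 1 of the 8 at an unadjusted p under 0.05. That threshold was met by 867 of all 28113 probes.

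**Figure D2:**
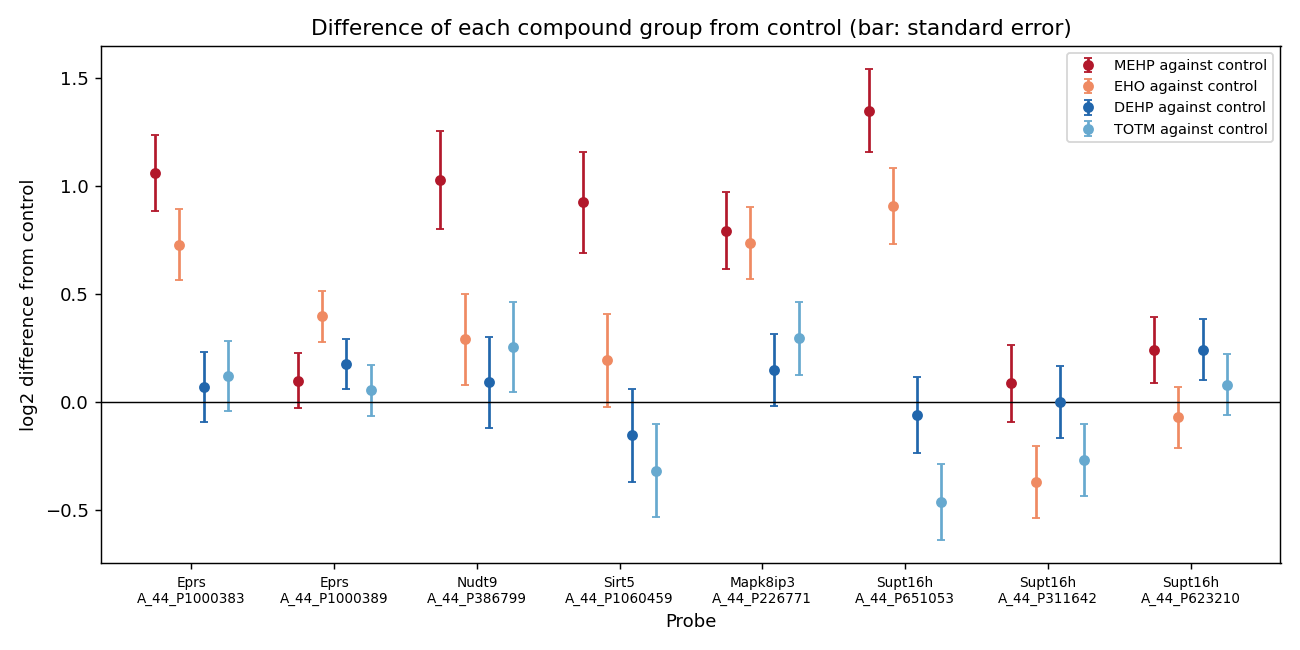
Log2 difference from control of each compound group (points) with its standard error (bars) for the 8 probes, where the 4 comparisons share the control arrays. MEHP points of 5 probes lie at 0.79 to 1.35, EHO points of 3 of them at 0.73 to 0.91, and DEHP and TOTM points of all probes at -0.46 to 0.29.

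The order of the group means differed between genes below MEHP. Eprs A_44_P1000383 had mean log2 levels of 0.05 ± 0.24 with EHO, -0.56 ± 0.23 with TOTM and -0.61 ± 0.07 with DEHP, against -0.68 ± 0.35 in control. Supt16h A_44_P651053 had 0.37 ± 0.23 with EHO, -0.60 ± 0.15 with DEHP and -1.001 ± 0.35 with TOTM, against -0.54 ± 0.28 in control. In both, MEHP stood first and EHO next, with overlapping arrays, and TOTM, DEHP and control overlapped. Mapk8ip3 had 0.57 ± 0.04 with EHO, 0.13 ± 0.07 with TOTM and -0.02 ± 0.18 with DEHP, against -0.17 ± 0.26 in control. Its EHO arrays lay within the range of the MEHP arrays. Nudt9 had 1.07 ± 0.31 with EHO, 1.03 ± 0.36 with TOTM and 0.87 ± 0.21 with DEHP, against 0.78 ± 0.30 in control. Its EHO, TOTM, DEHP and control arrays overlapped throughout, and the highest TOTM array, at 1.53, reached the range of MEHP. Sirt5 had 0.24 ± 0.35 with EHO, -0.11 ± 0.37 with DEHP and -0.27 ± 0.32 with TOTM, against 0.05 ± 0.25 in control (SD, n = 4 for each group). Its EHO, DEHP, TOTM and control arrays overlapped, and all of them lay below the lowest MEHP array.

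Arrays that resembled each other in nearly all probes, yet lay on different slides, were compared in pairs. The pairs use MEHP and control arrays that entered the choice, and each is 1 array against 1 array, so the differences are descriptions. MEHP replicate 3 minus control replicate 2 had a median absolute deviation of 0.18 over 27678 probes on the log2 scale, and MEHP replicate 4 minus DEHP replicate 3 likewise 0.18 over 28111 probes. Star, with 3.21 on MEHP replicate 3 against 3.19 on control replicate 2, differed by 0.01 in the first pair and by 0.04 in the second.

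The probes of the 5 genes that stood apart between MEHP and control had positive differences in both pairs. In the first pair this followed from the choice, as every MEHP array lay above every control array on these probes. Supt16h A_44_P651053 had log2 differences of 1.32 between MEHP replicate 3 and control replicate 2 and 1.33 between MEHP replicate 4 and DEHP replicate 3. Sirt5 had 1.21 and 0.97, Eprs A_44_P1000383 had 1.08 and 0.92, Nudt9 had 0.998 and 0.77, and Mapk8ip3 had 0.68 and 0.66. All 5 were over 0.5 in both pairs, as were 443 of 28111 probes or 1.58%, while 189 probes were under -0.5 in both. Of the 236 probes called higher with MEHP, 209 were among the 443, so the pattern was not particular to the 5 probes. Those calls also rest in part on the arrays of these pairs. The other probes of Eprs and Supt16h stayed between -0.10 and 0.08 in both pairs. Between MEHP replicates 1 and 2, on 1 slide, the 8 probes differed by -0.31 to 0.18. The higher levels of the 5 probes were present on MEHP arrays whose Star level was close to that of an array on another slide. Both pairs differ in compound as well as in slide, so they do not tell these apart.

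**Figure D3:**
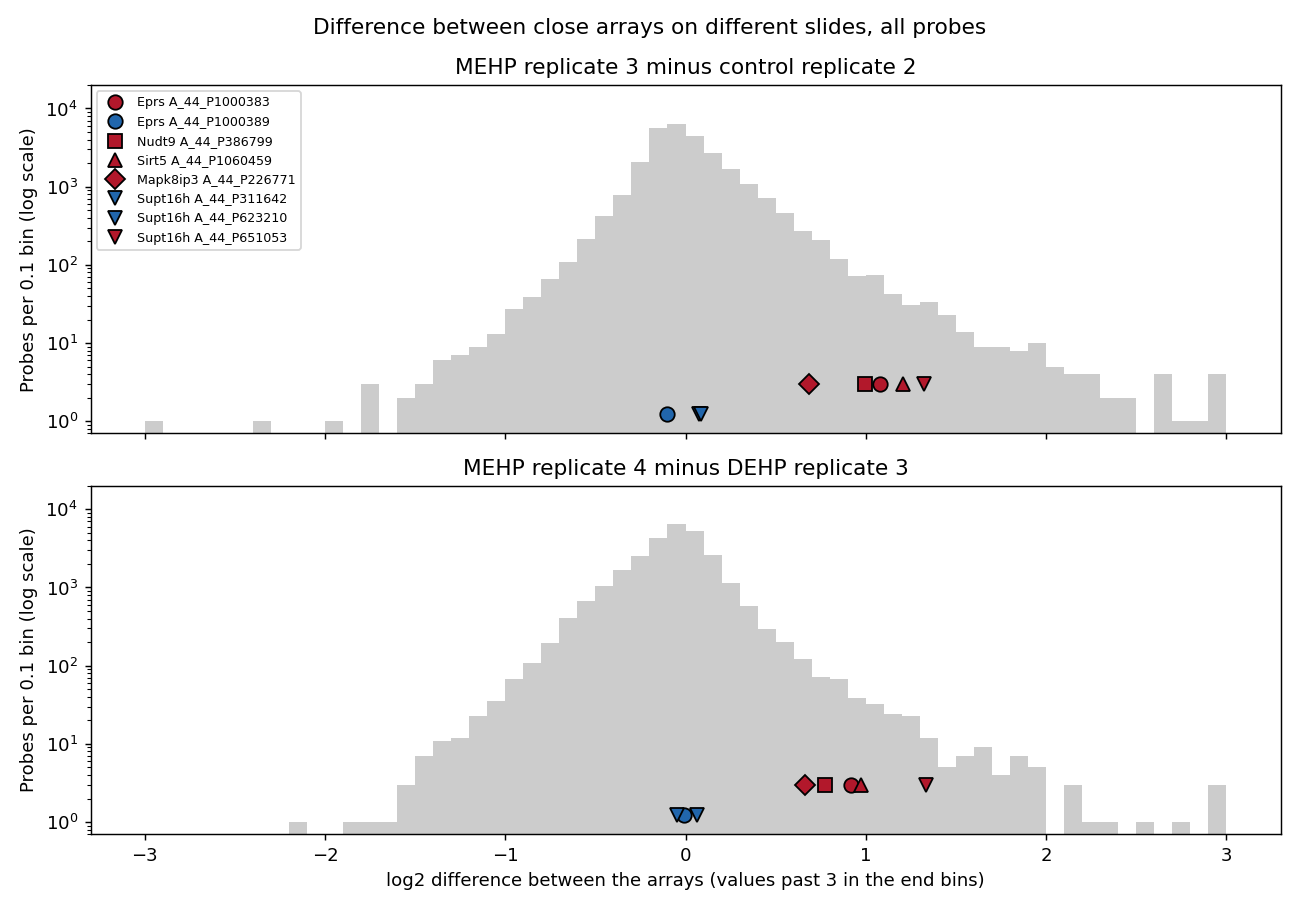
Number of probes (log axis) by log2 difference between MEHP replicate 3 and control replicate 2 (top) and between MEHP replicate 4 and DEHP replicate 3 (bottom), with the 8 probes as symbols whose height has no meaning. The 5 red symbols lie at 0.66 to 1.33 in both pairs, and the 3 blue ones, the other probes of Eprs and Supt16h, at -0.10 to 0.08.

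Spots within 2 rows and 2 columns of each of these probes had lower differences of MEHP from control than the 5 probes that stood apart. Around Supt16h A_44_P651053 the 14 neighbouring spots had a median log2 difference of MEHP from control of -0.08 and a highest value of 0.02, where the probe itself had 1.33 over the 4 arrays counted singly. Around Eprs A_44_P1000383 the 15 neighbours had a median of -0.27 and a highest value of 0.15, where the probe had 1.05. Around Nudt9, Sirt5 and Mapk8ip3 the highest neighbours had 0.27, 0.27 and 0.47, below the 0.95, 0.90 and 0.91 of the probes. With EHO the highest neighbour of Mapk8ip3 had 1.41, above the 0.74 of the probe, while the median of its neighbours was -0.08. The highest EHO neighbours of Eprs A_44_P1000383 and Supt16h A_44_P651053 had 0.53 and 0.51, below the 0.73 and 0.91 of the probes. The medians of their neighbours were -0.93 and 0.08. For Nudt9 and Sirt5 the highest EHO neighbours had 0.34 and 0.43, above the 0.29 and 0.19 of the probes.

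Across the 20 arrays the levels of these 5 probes went together, with Pearson correlations of 0.43 (Nudt9 and Mapk8ip3) to 0.90 (Eprs A_44_P1000383 and Supt16h A_44_P651053), as a description of arrays that share slides and that partly served to choose the genes. Eprs A_44_P1000389 correlated with Eprs A_44_P1000383 at 0.52. Supt16h A_44_P651053 correlated at 0.15 with A_44_P311642 and at 0.09 with A_44_P623210, so it went more closely with a probe of Eprs than with the other probes of its own gene.

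For the search of like patterns each gene was represented by its brightest probe, which is A_44_P1000389 for Eprs and A_44_P651053 for Supt16h. Among 8132 probes of other genes with a current symbol, the levels most like the mean of the 5 over 20 arrays were those of Dhx16, a helicase of the spliceosome, at a Pearson correlation of 0.94. Ppp1r14bl (0.94) and the olfactory receptor genes Or6al2 (0.93), Or13a27e (0.92) and Or2ak6 (0.92) followed. Dhx16 had a log2 difference of 1.87 from control with MEHP and 1.11 with EHO, and Ppp1r14bl 1.59 and 0.81. The search took in the arrays on which the 5 genes were chosen, so high MEHP levels in the genes found are no separate result. Singly, Supt16h was most like Dhx16 (0.92), Or6al2 (0.92) and Or13a27e (0.91), and Sirt5 was most like Tob1 (0.91), Dhx16 (0.87) and Ndufc2 (0.83). Nudt9 was most like Ube2l6 (0.90), Aldh3a1 (0.89) and Nfyc (0.86), and Mapk8ip3 like Mb (0.89), Oprd1 (0.87) and Or4f7c (0.86). The brighter Eprs probe was most like Arid4b (0.94), Ppp1r14b (0.92) and Fmr1 (0.92), whose log2 differences with MEHP were 0.07 to 0.16. For Eprs A_44_P1000383, added after its values were seen, the nearest were Or2ak6 (0.91), 1700009N14Rikl (0.90) and Or13a27e (0.90).

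Genes known to work with the 5 were taken from lists, beside which 0.85% of all probes were called higher with MEHP and 0.0288% lower. Over the lists of aminoacyl-tRNA synthetases, Nudix hydrolases and ADP-ribose genes, sirtuins and their mitochondrial substrates, the JNK pathway with kinesin-1, and FACT with other histone chaperones, 0 of 127 probes passed with MEHP in limma, 2 of them at an unadjusted p under 0.05. The median log2 differences were 0.00, -0.05, -0.08, -0.02 and 0.03 in that order, near the -0.06 of all probes. Of all 27753 probes, 1428 had an unadjusted p under 0.05 with MEHP. Ssrp1, the partner of Supt16h in FACT, had log2 levels of 1.42 to 2.10 with MEHP, against 1.41 to 1.99 in control, a difference of 0.14 ± 0.17. Trpm2, the cation channel gated by ADP-ribose, had a log2 difference of -0.37 ± 0.54. Pdha1, a subunit of pyruvate dehydrogenase, had levels of 1.62 to 1.81 with MEHP, against 1.15 to 1.54 in control, a difference of 0.41 ± 0.15 with a limma adjusted p of 0.578. Dusp8, a phosphatase that acts on JNK, had the highest value at 0.88 ± 0.56, with levels of 2.71 to 5.74 with MEHP, against 1.93 to 4.17 in control. Mapk8ip2, which also encodes a scaffold of the JNK pathway, had -0.37 ± 0.35.

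With EHO, 14 of the 127 probes rose against control, which is 11% where all probes gave 6.37%, and 13 fell, which is 10.2% where all gave 17.8%. Among the synthetases 1 of 30 probes rose and 2 fell, and a probe of Iars, the isoleucyl-tRNA synthetase, rose by 0.52 ± 0.18 on the log2 scale (limma adjusted p = 0.0464). The 2 that fell, of Farsb and Rars, were well above background on only 2 and 3 of the 4 EHO arrays. The other probes of these genes had log2 differences of 0.17 and 0.20. Of 21 probes of the Nudix list 0 rose and 1 fell. Nudt1, which clears oxidised nucleotides, fell by 0.45 ± 0.12 on the log2 scale (limma adjusted p = 0.0265). Of 22 probes of the sirtuin list 5 rose, among them Pdha1 with 0.57 ± 0.14 and a probe of Vdac1, a channel of the outer mitochondrial membrane, with 0.55 ± 0.12 (limma adjusted p = 0.0193 and 0.0106). In the JNK list 2 of 32 probes rose and 7 fell. Dusp8 rose by 2.05 ± 0.51, with levels of 5.32 to 5.76 with EHO, against 1.93 to 4.17 in control (limma adjusted p = 0.0212). Mapk10 and Map3k10, kinases of the JNK cascade, were called lower but were well above background on only 2 and 3 of the 4 EHO arrays. In the FACT list 6 of 22 probes rose and 3 fell. Among those that fell was a probe of Asf1a that was well above background on only 2 of the 4 EHO arrays. The other Asf1a probes had log2 differences of 0.09 and 0.28. Atrx, a chromatin remodeller, rose by 0.60 ± 0.13, and a probe of Nap1l1, a nucleosome assembly protein, by 0.58 ± 0.15 (limma adjusted p = 0.011 and 0.0236). The 2 probes of Supt5h, an elongation factor, went opposite ways: A_44_P309140 fell by 0.71 ± 0.22 (limma adjusted p = 0.0366), and A_44_P158768 had a log2 difference of 0.43. Without EHO replicates 1 and 2 none of the 127 probes passed, where 0.573% of all probes were called higher.

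**Figure D4:**
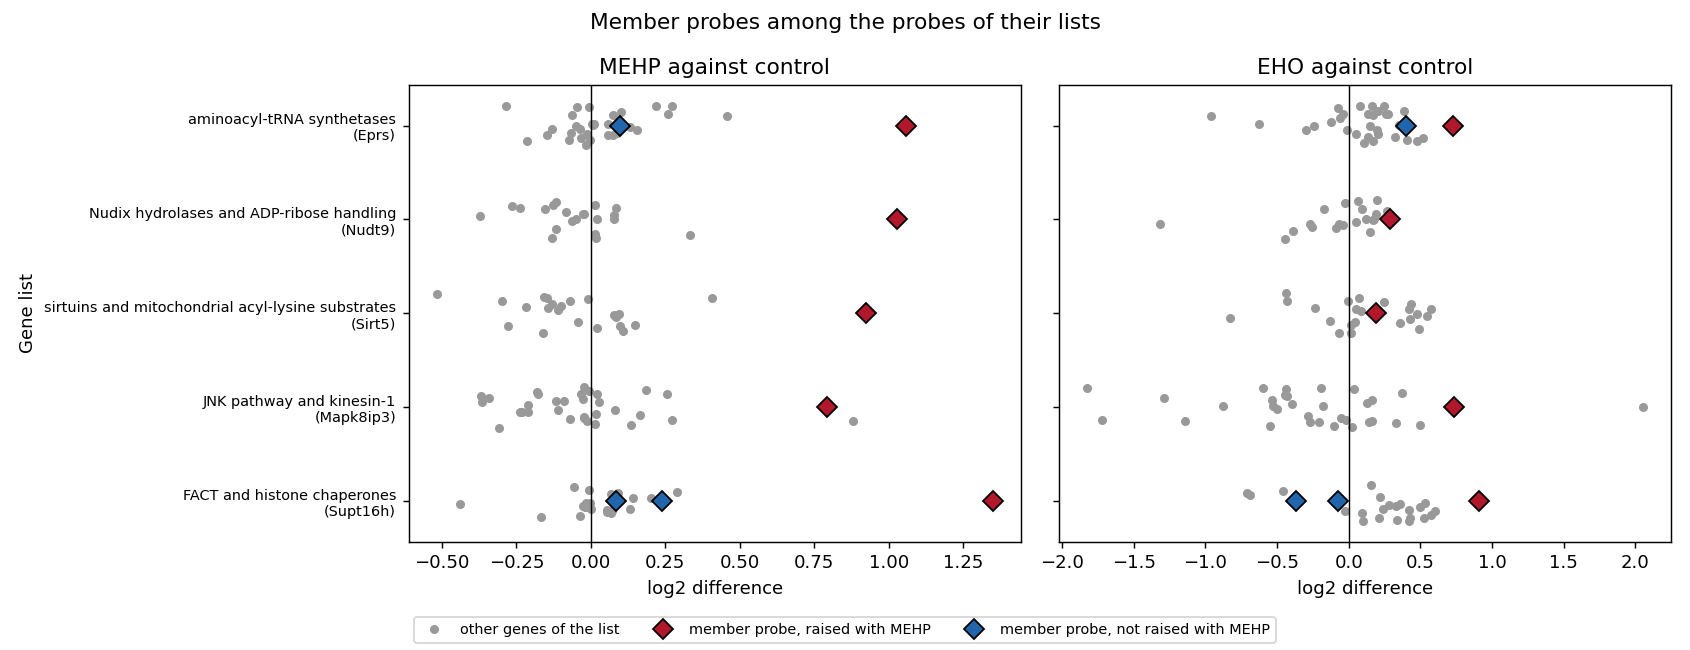
Log2 difference from control with MEHP (left) and EHO (right) for the probes of each gene list, grey points for other genes of the list and diamonds for the probes of Eprs, Nudt9, Sirt5, Mapk8ip3 and Supt16h, spread vertically only to part the points. With MEHP the red diamonds lie at 0.79 to 1.35, and the only grey point beyond 0.5 on that side is Dusp8 at 0.88.

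The authors' deposited table lists rows with p-values under 0.01 for each compound, a small part of the 41012 probes on the array. Nothing is read from the number of these 8 probes that it lists. In the authors' deposited table the MEHP block, of 3827 rows, lists Mapk8ip3 at a signed fold of 2.3 (p = 1.46e-13) and none of the other 7 probes. The block of the authors' deposited table headed EH, of 4210 rows, lists Mapk8ip3 at 1.59 (p = 4.61e-08) and Eprs A_44_P1000389 at 1.27 (p = 0.00235). The DEHP and TOTM blocks of the authors' deposited table hold 0 rows for the 8 probes. The test behind those p-values is not given in the sources used here.

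Markers of cell types in or near the testis varied between arrays as well. Erythroid markers, all 5 probes of which were well above background on every array, had mean log2 levels of 2.94 to 4.18 on MEHP arrays, 3.62 to 4.85 on EHO arrays, 2.67 to 4.10 on DEHP arrays and 3.01 to 3.57 on TOTM arrays, against 2.10 to 2.64 on control arrays. They were above control on every array of every compound group. Peritubular and interstitial markers, all 5 probes of which were well above background on every array, had mean levels of 2.01 to 2.68 on EHO arrays, 1.80 to 1.91 on MEHP arrays, 1.61 to 1.95 on DEHP arrays and 1.17 to 1.86 on TOTM arrays, against 1.46 to 2.04 on control arrays. Gonocyte markers, 5 of 7 probes of which were so, had 0.45 to 1.20 on EHO arrays, 1.10 to 1.32 on MEHP arrays, 1.21 to 1.42 on DEHP arrays and 1.39 to 1.51 on TOTM arrays, against 1.14 to 1.32 on control arrays. Every EHO array thus lay above every DEHP and TOTM array for the peritubular and interstitial list and below them for the gonocyte list. Fetal Leydig cell markers had mean levels of 1.5 to 3.88 on MEHP arrays, against 3.18 to 3.43 on control arrays. They had 3.07 to 3.57 on EHO arrays, 2.65 to 3.14 on DEHP arrays, all below control, and 3.67 to 3.94 on TOTM arrays, all above control. Sertoli cell markers had 1.58 to 1.90 with MEHP, 1.18 to 1.82 with EHO, 1.70 to 1.83 with DEHP and 1.73 to 1.94 with TOTM, against 1.57 to 1.71 in control. Adrenal cortex markers were well above background on all arrays for 0 of 4 probes. The part of these shifts in the levels of the 8 probes was not tested.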

How the data were processed

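Each array measured labelled RNA in 1 colour. Per the file headers the deposited spot values are intensity readings made by Agilent Feature Extraction 9.5.3.1 (9.5 per the submitters' processing notes), with probes placed on rn4. In the authors' deposited table, per the file headers, probes carry a signed fold score and a p-value for each compound. The array files' processed signal was taken as log2 minus the 75th percentile of each array, and values of repeated spots were averaged after spots marked as outliers were left out. The filter kept 28113 of 41012 probes, those that all arrays of some group showed well above background, and 27753 had values for comparisons with control. limma 3.58.1 in R 4.3.3 fitted 5 groups over 19 samples (residual degrees of freedom 14, prior 2.59). Calls were made at an adjusted p under 0.05, with Benjamini-Hochberg adjustment over all probes. In limma on data simulated from these arrays, 59.7% of 67 probes changed by 1 on the log2 scale were called for EHO against control. Of 67 probes changed by 0.5, 17.9% were called. The simulation changed far fewer probes than were called in the data, so these shares do not give the sensitivity of the comparison itself.

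The genes, the lists, the motifs and the close pairs of arrays were chosen with earlier results of these data known. The rule for named genes took all probes of the 5 genes, up to 4 genes of each list with the largest change for MEHP and for EHO (a selection of which is printed), and the 3 probes most like each gene (5 for their mean). Alternatives changed the background correction, normalization, scaling, filter, probes per gene, outlier spots, samples in the fit, averaging of MEHP replicates 1 and 2, a replicate block and each array left out. Nothing in the labels ties the pools to dams beyond 1 litter each, so p-values measure the spread between these pools. The number of arrays limits precision. Probe sequences, exon positions of the probes and the promoter of Supt16h were not analysed here.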

Additional observations from a re-analysis of the deposited data

Results flagged for a closer look

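Of 32 groups of 4 arrays checked, 1 held an array far from the others. The level of Mapk8ip3 A_44_P226771 on control replicate 2 was -0.54 on the log2 scale, where the other control arrays had -0.07 to 0.02. Chance marks about 1 in 20 groups by this rule. MEHP, with 3 samples, was not checked. Without control replicate 2 the log2 difference of Mapk8ip3 was 0.67 for MEHP against control and 0.61 for EHO against control.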

How the results depend on the processing

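Supt16h A_44_P651053 was called higher with EHO than with DEHP and TOTM in all 32 alternatives, with log2 differences of 0.71 to 1.62 (limma adjusted p from 2.78e-05 to 0.0051). Leaving out EHO replicates 1 and 2 together moved the EHO counts to 0 of 8 probes against control, to 1 against DEHP and TOTM, and to 0 list probes. The share of all probes called higher fell alongside, from 6.37% to 0.573% against control and from 9.82% to 2.32% against DEHP and TOTM. Fitting only the groups compared gave 0 of 8 and 0 list probes for EHO against control, where 2 of all 27753 probes were called higher and 1 lower. With single arrays left out, the counts ran from 3 to 4 for EHO against control, from 2 to 5 for EHO against DEHP and TOTM, from 5 to 6 for probes apart between MEHP and control (4 to 6 over all settings), and from 3 to 41 for list probes with EHO. The last count was 27, and fell to 3 without EHO replicate 1, 4 without EHO replicate 2, 4 without control replicate 1 and 5 without control replicate 4. Calls over all probes fell alongside, from 1769 higher and 4943 lower. They were 520 and 467, 664 and 587, 503 and 349, and 763 and 697 in that order. Median scaling gave 49 list probes with EHO, where 6600 of all 27753 probes were called higher and 2839 lower. With 1 probe per gene name the count was 15, but fewer list probes were tested. In that setting 1539 of all 23882 probes were called higher and 4367 lower. The lowest count of probes apart between MEHP and control, 4, also came from it. Keeping outlier spots gave 2 list probes with MEHP, where 1.2% of all probes were called higher. The log2 difference of Supt16h A_44_P623210 turned positive for EHO against control with normexp and quantile normalization (0.28, limma adjusted p = 0.0353), quantile normalization (0.38), median scaling (0.46) and without EHO replicates 1 and 2 (0.066). Against DEHP and TOTM it was 0.0782, 0.11 and 0.22 under the first 3 of these. Without EHO replicate 3 this probe passed as lower against DEHP and TOTM (-0.39, limma adjusted p = 0.00835), and Supt16h A_44_P311642 as lower against control (-0.46, limma adjusted p = 0.0491). Supt16h A_44_P311642 turned to 0.16 and 0.21 with median scaling in these comparisons, and Nudt9 to -0.092 against DEHP and TOTM without EHO replicates 1 and 2. Median scaling moved the median of all probes for EHO against control from -0.17 to 0.36 and the share of calls that were higher from 26.4% to 69.9%. That share was 44.9% with normexp, 46.3% with quantile normalization and 62.7% with a filter on all arrays, and for EHO against DEHP and TOTM it moved from 27% to 63.8% with median scaling, 46.9% with normexp, 43.7% with quantile normalization and 57.8% with the filter. Eprs A_44_P1000389 lost its call in 8 of 32 alternatives against control and in 15 of 32 against DEHP and TOTM. The causes were not tested. Same-numbered arrays of different groups did not deviate together (median correlation -0.05, 3 of 20 arrays closest to their own number), and with replicate number as a block 4 of 8 probes passed for EHO against control, 3 for EHO against DEHP and TOTM, and 19 list probes with EHO. All 8 probes were well above background on all 20 arrays.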
